A study of Mus musculus with 57 samples.

Results

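Sparc, Srgn, Fst, Plat and Thbd encode secreted or cell surface products of parietal endoderm, and they were followed here as 5 of the 55450 genes with a GENCODE M21 symbol in the count table. The members were given by name, without a threshold on any value, but they were chosen with earlier results of these data known. Counts of members set beside shares of all genes are therefore descriptions. The RNA-seq libraries came from the Sox1-EGFP/FoxA2mCherry line, a single clone of mouse embryonic stem cells in which EGFP replaces 1 Sox1 allele and mCherry is fused to FOXA2. Cells were kept in SerumLIF and then differentiated in N2B27 medium with 1 uM retinoic acid (RA), and they were sorted by both reporters. The 57 libraries formed 19 conditions with 3 replicates each. D0 was undifferentiated Sox1-FoxA2- cells. Each later day (D2, D4 and D6) had Sox1-FoxA2- cells with neither reporter, Sox1+FoxA2- cells with EGFP alone, Sox1-FoxA2+ cells with mCherry alone, and Sox1+FoxA2+ cells with both. The progeny conditions began from D2 cells of the last 3 gates, which were sorted and replated in RA with a serum basal medium for 2 or 4 further days and are called D4 progeny and D6 progeny. All groups share the reporter alleles. The study describes no second sort of the progeny, so that they were gated only at D2, while sorted cells were gated on the day RNA was taken. The effects of replating, of serum and of the missing second sort cannot be told apart.

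Parietal endoderm is the extra-embryonic layer that lines the yolk sac cavity and lays down Reichert's membrane, a thick basement membrane of laminin and type IV collagen. Its cells secrete matrix proteins at a very high rate, and embryonal carcinoma cells given RA and cyclic AMP are the classical culture model of it. Sparc is a calcium-binding glycoprotein that binds collagen in the matrix. Srgn is serglycin, a proteoglycan core protein with a serine-glycine repeat that is packed into secretory granules of blood cells and is also made by yolk sac tumours. Plat is tissue plasminogen activator, the protease that turns plasminogen into plasmin, and Thbd is thrombomodulin, the surface receptor through which thrombin activates protein C. Fst is follistatin, a secreted protein that binds and blocks activins.

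The libraries held 10170632 to 81845651 counts each (median 36694379). Foxa2 followed its gate, with means of 2253 to 2648 normalized counts in sorted Sox1-FoxA2+ cells of the 3 days and at most 211 in sorted Sox1+FoxA2- cells, but the Sox1+FoxA2+ cells of D6 held 268 ± 400.0 (SD, n = 3), with 0 in replicate 1. Sox1 was listed at 0 counts in all 57 libraries, so that the counts could not check the Sox1 gate. Of the parietal endoderm markers, Lama1, Lamb1, Lamc1, Col4a1, Col4a2, Gata4, Gata6, Hspg2 and Serpinh1 were higher in D6 Sox1-FoxA2+ than in D6 Sox1+FoxA2- cells (9 of 14 markers), and all 14 were higher in the D6 progeny. Levels are given as counts normalized with DESeq2 size factors (mean ± SD, n = 3). Differences are log2 fold changes from edgeR's quasi-likelihood test, called at a Benjamini-Hochberg adjusted p under 0.05 over all genes tested. An exact two-sided permutation test of 3 against 3 libraries cannot go below p = 0.1. In these bulk samples, fewer cells of a type and less RNA per cell cannot be told apart.

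The bases before the starts of Sparc and Srgn are shown, the genes called in the most comparisons and the only 2 of the 5 that the promoter table held. The entries are from RefSeq on GRCm38.p6, and each line gives the 250 bases before the annotated start on the minus strand, 5′ to 3′, with capitals for matches to the motifs searched.
Sparc, chr11:55420081-55420330: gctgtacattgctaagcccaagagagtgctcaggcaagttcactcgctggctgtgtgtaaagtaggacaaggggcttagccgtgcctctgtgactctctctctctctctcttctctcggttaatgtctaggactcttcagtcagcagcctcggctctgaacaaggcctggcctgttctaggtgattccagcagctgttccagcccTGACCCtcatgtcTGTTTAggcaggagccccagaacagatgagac
Srgn, chr10:62527446-62527695: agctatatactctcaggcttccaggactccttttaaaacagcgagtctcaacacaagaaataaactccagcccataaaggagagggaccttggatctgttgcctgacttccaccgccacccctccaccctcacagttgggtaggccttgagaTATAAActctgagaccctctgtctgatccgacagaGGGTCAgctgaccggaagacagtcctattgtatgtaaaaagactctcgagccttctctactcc
In Sparc the capitals mark a forkhead word (TGTTTA, first base at -32) and, at -45, a half-site of RA receptors read on the other strand. In Srgn they mark the word TATAAA at -98 and a half-site at -63, and a second annotated start of Srgn, chr10:62507758-62508007, held no match. The words were searched on both strands in 32851 promoters of this length. A forkhead word, which is TGTTTA or alternatively TATTTA, was held by 22.1% of them. A half-site, AGGTCA or alternatively GGGTCA, was held by 23.8%, and the word TATAAA at any position by 12.4%. No match was found in any of the 3 windows for GATA words, searched as AGATAA, or otherwise TGATAA, or otherwise AGATAG, or otherwise TGATAG. The same held for SOX words (ACAATG or otherwise ACAAAG), for AP-1 words (TGACTCA or otherwise TGAGTCA) and for the SP word GGGCGG. These were held by 26.5%, 25.2%, 4.46% and 32.7% of all promoters. No word overlapped another in these windows. The matches are a description of letters and not of binding.

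**Figure D1:**
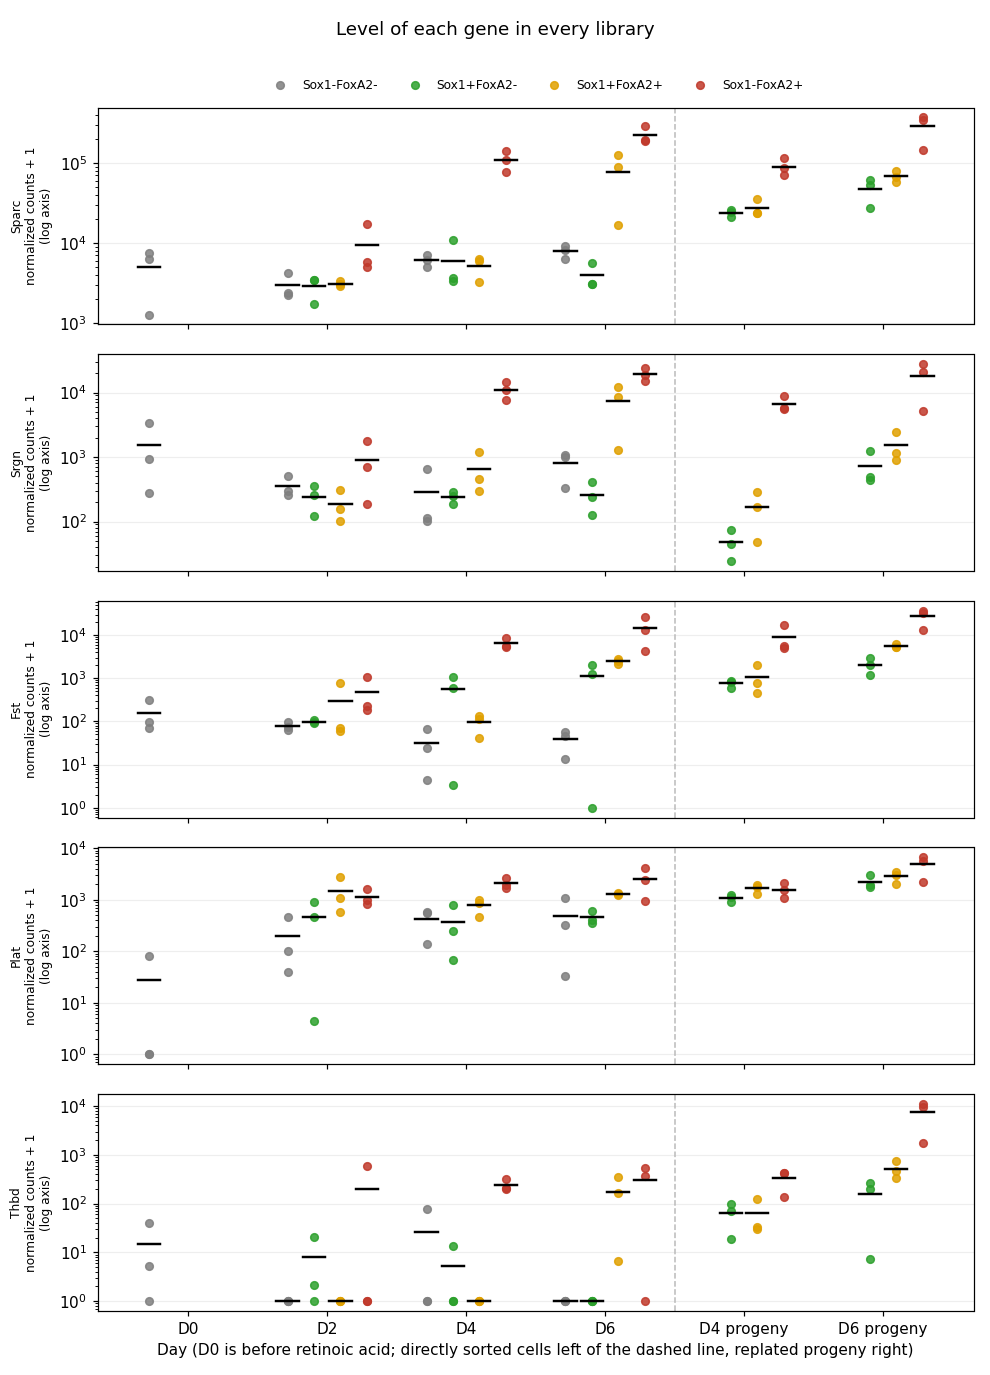
Normalized counts plus 1 (log axis) of each gene in all 57 libraries by day, with directly sorted cells left and replated progeny right of the dashed line, points for libraries coloured by population and bars for means of 3. The Sox1-FoxA2+ libraries of D4 and D6 lie between 78086 and 288429 counts for Sparc, above every library of the other populations at D4, and Thbd reaches 1784 to 11058 counts only in D6 progeny of Sox1-FoxA2+ cells.

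The genes differed in when and where they were called. Among the 38 comparisons Sparc was called in 17 (14 higher and 3 lower in the first population), Srgn in 12 (9 and 3), Fst in 4 (3 and 1), Plat in 2 and Thbd in 2. Thbd passed the filter on low counts in 29 of the 38 comparisons and the other genes in all 38. At D2 no member was called when Sox1-FoxA2+ cells were set against Sox1+FoxA2- cells, where edgeR called 0.00491% of 20369 genes and 1 member had an unadjusted p under 0.05, the same 1 that DESeq2 called. Of the 20369 genes, 1031 had an unadjusted p under 0.05 and DESeq2 called 261. In this comparison 2 members were called higher at D4, against 0.205% of all genes, and 2 at D6, against 1%. In the progeny 3 were called higher at D4, against 1.44%, and 4 at D6, against 3.59%. All libraries of Sox1-FoxA2+ cells lay above all those of Sox1+FoxA2- cells for 2 members at D2 (3.94% of all genes), 5 at D4 (6.14%), and 4 each at D6 (6.97%), among D4 progeny (7.9%) and among D6 progeny (12.8%). Set against Sox1-FoxA2- cells, 2 members were called higher in Sox1-FoxA2+ cells at D4 (0.279% of all genes) and 2 at D6 (0.653%). The libraries of these groups did not overlap for 5 members at D4 (7.67% of all genes) and 3 at D6 (6.12%).

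**Figure D2:**
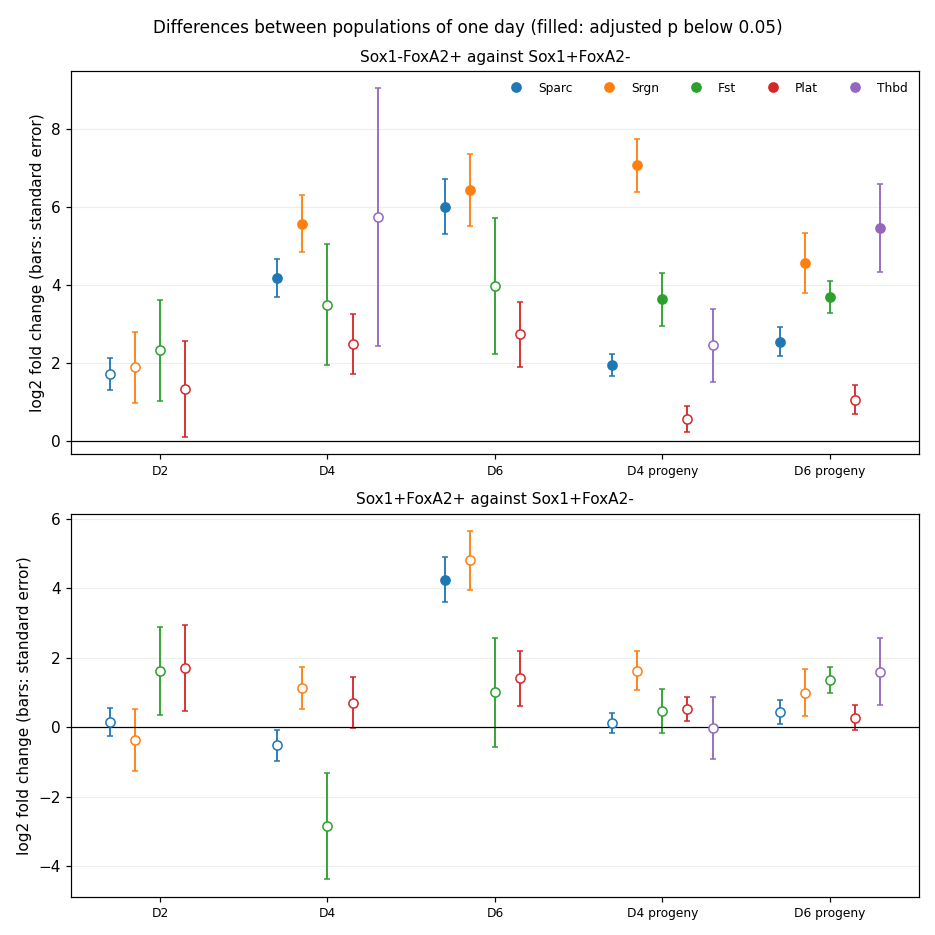
Log2 fold changes with standard errors of the 5 genes between populations of the same day, for Sox1-FoxA2+ (top) and Sox1+FoxA2+ (bottom) against Sox1+FoxA2- cells, with filled points for adjusted p under 0.05. Thbd is left out where it was not tested or a group was at 0. Sparc and Srgn are filled from D4 on in the top panel, and only Sparc at D6 is filled in the bottom panel.

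Scaled by exon length, Sparc was the most abundant of the 5 in Sox1-FoxA2+ cells at every time. Its mean of 58698 normalized counts per kilobase at D6 ranked it 14 of 23634 genes detected there, and in the D6 progeny it ranked 8 of 27879. Srgn ranked 120 at D6 and 96 in the D6 progeny on the same scale. Fst climbed from rank 8948 at D2 to 337 at D6 and 137 in the D6 progeny. Plat stayed lower, at rank 3893 at D6 and 2020 in the D6 progeny. Thbd ranked 11133 at D6 and 574 in the D6 progeny. Sparc alone took between 0.514% and 0.772% of all counts in the D6 libraries and between 0.374% and 0.944% in those of the D6 progeny.

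**Figure D3:**
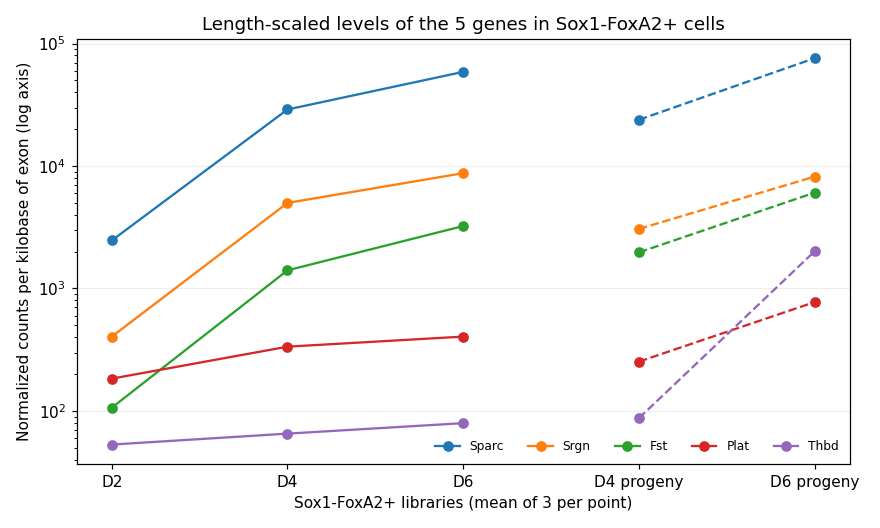
Mean normalized counts per kilobase of exon (log axis) of the 5 genes in Sox1-FoxA2+ cells, sorted at D2, D4 and D6 (solid lines) and in D4 and D6 progeny (dashed lines), 3 libraries a point. Sparc is the highest line throughout, and Thbd is the lowest except in D6 progeny, where it lies above Plat.

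Sparc (ENSMUSG00000018593.13, GRCm38 chr11:55394500-55423183, minus strand) rose among sorted cells in both populations with the FoxA2 reporter, and first in Sox1-FoxA2+ cells. In Sox1-FoxA2+ cells the libraries held 4972, 5784 and 17269 counts at D2, 142602, 78086 and 108185 at D4, and 288429, 186205 and 192405 at D6. In Sox1+FoxA2- cells they held 3444, 3403 and 1708 at D2, 10881, 3665 and 3310 at D4, and 5650, 3086 and 3066 at D6. The libraries of the 2 populations did not overlap on any day. At D2 the difference was 1.72 ± 0.41 (log2, SE) and was not called (adjusted p = 0.789), although DESeq2 called it (adjusted p = 0.00539, range over the alternatives 1.23e-05 to 1). At D4 Sparc was 18.1-fold higher (log2 4.18 ± 0.50, adjusted p = 0.000159) and at D6 64.6-fold (6.01 ± 0.71, adjusted p = 0.000463). Without D4 Sox1+FoxA2- replicate 1, which was the highest of its group, the D4 difference was 34.6-fold. No left-out library ended either call.

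Against Sox1-FoxA2- cells, which carry neither reporter, Sparc was 18-fold higher in Sox1-FoxA2+ cells at D4 (adjusted p = 0.000144) and 28.6-fold at D6 (adjusted p = 0.00211). The Sox1-FoxA2- libraries held 7010, 5040 and 6103 counts at D4 and 9018, 8225 and 6239 at D6, so that they stayed below every Sox1-FoxA2+ library of those days. The D6 call was lost without D6 Sox1-FoxA2- replicate 1 (adjusted p = 0.0721) or replicate 2 (adjusted p = 0.0501). Before RA, Sparc was at 6195, 1264 and 7508 counts in the D0 libraries, of the same order as in the cells without FoxA2 reporter.

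In the progeny Sparc was high in all 3 populations. D4 progeny of Sox1-FoxA2+ cells held 70300, 114609 and 86263 counts and D6 progeny 146002, 372471 and 344242. Progeny of Sox1+FoxA2- cells held 21338, 25831 and 24376 counts at D4 and 61870, 52996 and 27401 at D6. Sparc was higher in the former by 3.87-fold at D4 (log2 1.95 ± 0.29, adjusted p = 0.0005) and 5.83-fold at D6 (2.54 ± 0.37, adjusted p = 0.000586), while the libraries again did not overlap. A fit of all 57 libraries lost the D4 progeny call (adjusted p = 0.36, range over the alternatives 8.5e-10 to 0.36). The change of this difference from sorted cells to progeny was -2.30 ± 0.55 on the log2 scale at D4 and -3.35 ± 0.84 at D6. In edgeR no member was called for this change (adjusted p of Sparc = 0.917 and 0.273, with 0% and 0.0196% of all genes called). Sparc and Plat had an unadjusted p under 0.05 on both days, and DESeq2 called Sparc on both (adjusted p = 0.00747 and 0.000383, with ranges over the alternatives of 0.000575 to 1 and of 4.26e-19 to 0.466). Over all genes, 1196 of 24857 at D4 and 2850 of 25515 at D6 had such a p, and DESeq2 called 289 and 1021.

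Genes of the matrix that Sparc belongs to were called with it. Lama1 and Serpinh1 are also among the parietal endoderm markers above, so that the counts of these lists are not independent. The 14 markers and the 12 genes below had nearly the same summed level in D6 Sox1-FoxA2+ libraries, with medians of 1084545 and 1095734 counts. Of 12 matrix and secretory genes of parietal endoderm, 7 were higher and 0 lower at D4 in Sox1-FoxA2+ cells relative to Sox1+FoxA2- cells (median log2 fold change 3.58, all genes -0.10), and 9 and 0 at D6 (median 4.86, all genes -0.30). In the D4 progeny 11 were higher and in the D6 progeny 12. Lama1, the laminin alpha chain of Reichert's membrane, was at 392951 ± 184501 counts in D6 Sox1-FoxA2+ and 2026 ± 262 in D6 Sox1+FoxA2- cells (log2 7.82, adjusted p = 0.00058). Serpinh1, the collagen chaperone of the endoplasmic reticulum, was 12.2-fold higher at D6 (adjusted p = 4.6e-05), and Plod2, a collagen lysyl hydroxylase, 16.9-fold (adjusted p = 8.34e-05). Of the 7 relatives of Sparc, edgeR called 0 between these populations at D4 or D6 (median log2 fold change 0.08 and -1.25). In the D6 progeny of Sox1-FoxA2+ cells, Spock1, a testican proteoglycan, was 28.7-fold higher (adjusted p = 4.38e-06) and Smoc1 4.06-fold (adjusted p = 0.0032) than in those of Sox1+FoxA2- cells.

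Srgn (ENSMUSG00000020077.14, GRCm38 chr10:62493833-62527451, minus strand) was low in Sox1+FoxA2- cells and high in Sox1-FoxA2+ cells from D4 on. In Sox1-FoxA2+ cells it was at 186, 694 and 1785 counts at D2, 14442, 7659 and 10815 at D4, and 24030, 18639 and 14929 at D6. The 9 Sox1+FoxA2- libraries of those days held between 120 and 414 counts. The libraries overlapped at D2, where the difference was not called (log2 1.88 ± 0.92, adjusted p = 0.915), and were apart at D4 and D6. Srgn was 47.5-fold higher in Sox1-FoxA2+ cells at D4 (log2 5.57 ± 0.73, adjusted p = 0.000939) and 86.7-fold at D6 (6.44 ± 0.92, adjusted p = 0.00318). The calls were lost without D4 Sox1+FoxA2- replicate 2 (adjusted p = 0.0913) and without D6 Sox1+FoxA2- replicate 1 (adjusted p = 0.0501).

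Against Sox1-FoxA2- cells Srgn was 38.2-fold higher at D4 (adjusted p = 0.00179) and 24.2-fold at D6 (adjusted p = 0.0215). Without D4 Sox1-FoxA2- replicate 1, at 642 counts against 112 and 102 in the other replicates, the D4 difference was 6.75 on the log2 scale. The D6 call was lost without any of the 6 libraries. The adjusted p was 0.0992, 0.136 and 0.174 without Sox1-FoxA2- replicates 1, 2 and 3, and 0.0669, 0.0816 and 0.0564 without Sox1-FoxA2+ replicates 1, 2 and 3. Undifferentiated D0 cells were not at a low level, with 923, 278 and 3384 counts, and their highest library lay above all libraries of D2.

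In the progeny of Sox1+FoxA2- cells Srgn was near its lowest, with 23.3, 73.4 and 44.2 counts at D4, and the progeny of Sox1-FoxA2+ cells held 5763, 8853 and 5590. That difference of 134-fold (log2 7.07 ± 0.67, adjusted p = 6.41e-05) held without each library in turn. In the D6 progeny the levels were 1253, 484 and 437 against 5253, 21090 and 27647 counts, a 23.7-fold difference (log2 4.57 ± 0.77, adjusted p = 0.00899). It was lost without Sox1+FoxA2- progeny replicate 2 (adjusted p = 0.109) or replicate 3 (adjusted p = 0.0820), and the log2 fold change was 5.28 without their replicate 1. Relative to Sox1+FoxA2- cells sorted on the same day, Srgn in these progeny differed by -2.18 ± 0.55 on the log2 scale at D4 (adjusted p = 0.0746) and by 1.71 ± 0.82 at D6 (adjusted p = 0.29), and neither was called.

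Serglycin carries chondroitin sulfate chains, and 11 genes of the enzymes that build them were listed. Of these 10 were tested, and edgeR called 0 at D4 or D6 when Sox1-FoxA2+ cells were set against Sox1+FoxA2- cells (median log2 fold change 0.12 and 0.33). In the D6 progeny Csgalnact1, which starts the chain, was 4.86-fold higher (1265 ± 417 against 253 ± 31.8 counts, adjusted p = 0.00234). Chst11, which sulfates it, was 3.52-fold lower (761 ± 486 against 2584 ± 1257 counts, adjusted p = 0.0411). Chst11 also fell in sorted Sox1-FoxA2+ cells, from 1849 ± 541 counts at D2, by 3.29 on the log2 scale up to D6 (adjusted p = 0.00586).

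Fst (ENSMUSG00000021765.9, GRCm38 chr13:114452290-114458951, minus strand) was also high in Sox1-FoxA2+ cells, and edgeR did not call it between sorted populations of D2, D4 or D6. Of its exon bases 2.51% overlap the antisense gene Gm47040, and reads in that stretch seem to have been dropped from the counts. The study plots Fst and Sparc among endoderm genes of these samples, so that neither is independent evidence of a direction. In Sox1-FoxA2+ cells the libraries held 181, 230 and 1053 counts at D2, 5569, 8459 and 5345 at D4, and 26887, 13332 and 4316 at D6. In Sox1+FoxA2- cells they held 89.0, 94.2 and 110 at D2, 1053, 598 and 2.44 at D4, and 1257, 2070 and 0 at D6. Every Sox1-FoxA2+ library lay above every Sox1+FoxA2- library of its day, and 1 Sox1+FoxA2- library stood near 0 at both later days. The log2 difference was 3.49 ± 1.56 at D4 (adjusted p = 0.881) and 3.96 ± 1.75 at D6 (adjusted p = 0.371). Without the filter on low counts the D4 difference was called at the same size (adjusted p = 1.12e-06). Over the alternatives the adjusted p ranged from 1.12e-06 to 0.942 at D4 and from 0.112 to 0.491 at D6.

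Against Sox1-FoxA2- cells, in which Fst was at 30.7 ± 31.8 counts at D4 and 38.6 ± 23.0 at D6, the log2 differences were larger, at 7.72 ± 1.91 (adjusted p = 0.303) and 8.65 ± 2.18 (adjusted p = 0.182). DESeq2 called both (adjusted p = 1.6e-06 and 2.49e-06), and over the alternatives the adjusted p ranged from 3.31e-24 to 0.469 at D4 and from 2.49e-06 to 0.212 at D6.

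In the progeny of Sox1-FoxA2+ cells Fst was called. These held 5452, 16762 and 4943 counts at D4 and 13139, 33425 and 36910 at D6, and the progeny of Sox1+FoxA2- cells 854, 842 and 606 at D4 and 2003, 3004 and 1168 at D6. The difference was 12.4-fold at D4 (log2 3.63 ± 0.69, adjusted p = 0.0277) and 12.9-fold at D6 (3.69 ± 0.42, adjusted p = 0.000204). The D4 call was lost without Sox1+FoxA2- progeny replicate 1, 2 or 3 (adjusted p = 0.273, 0.279 and 0.173), and the log2 fold change was 2.72 without Sox1-FoxA2+ progeny replicate 2. The fit of all 57 libraries lost both calls (adjusted p = 0.824 and 0.299, ranges over the alternatives 5.41e-08 to 0.824 and 6.36e-35 to 0.299), and no left-out library ended the D6 call.

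The activin and BMP system around follistatin gave no call in this comparison among sorted cells. The ligands of the list numbered 8, of which edgeR called 0 at D4 or D6 when sorted Sox1-FoxA2+ cells were set against Sox1+FoxA2- cells, and likewise 0 of the 6 receptors and 0 of the 7 other antagonists. In the D6 progeny of Sox1-FoxA2+ cells Bmp2 was higher at 1789 ± 815 against 195 ± 32.1 counts (8.81-fold, adjusted p = 0.000232). The BMP antagonist Nog was higher there too (3126 ± 2077 against 162 ± 124 counts, adjusted p = 0.0288). Over time in sorted Sox1-FoxA2+ cells Bmp7 fell from 1424 ± 341 counts at D2 to 80.8 ± 41.6 at D6 (adjusted p = 0.00118), and Acvr1, a BMP type I receptor, rose 2.61-fold (adjusted p = 0.0358).

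Plat (ENSMUSG00000031538.6, GRCm38 chr8:22757727-22782844, plus strand) was not called between sorted populations of the same day by edgeR. In Sox1-FoxA2+ cells the libraries held 1601, 844 and 995 counts at D2, 1953, 1689 and 2632 at D4, and 4179, 2465 and 936 at D6. Sox1+FoxA2- cells held 916, 471 and 3.54 at D2, 787, 67.3 and 244 at D4, and 604, 355 and 403 at D6, lower on average but with overlap at D2. The log2 difference was 2.49 ± 0.77 at D4 (adjusted p = 0.366) and 2.73 ± 0.83 at D6 (adjusted p = 0.131). DESeq2 called both (adjusted p = 0.0481 and 0.0382). Over the alternatives the adjusted p ranged from 0.0481 to 0.582 at D4 and from 0.0263 to 0.286 at D6. Sox1+FoxA2+ cells carried as much Plat as Sox1-FoxA2+ cells at D2, at 1492 ± 1155 against 1147 ± 400 counts. At D0 Plat was 0, 0 and 78.5 counts.

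In D4 progeny Plat was at 1094 ± 172 counts from Sox1+FoxA2-, 1579 ± 508 from Sox1-FoxA2+ and 1680 ± 358 from Sox1+FoxA2+ cells, and only those from Sox1+FoxA2- and Sox1+FoxA2+ cells did not overlap. The log2 difference between Sox1-FoxA2+ and Sox1+FoxA2- progeny was 0.56 ± 0.34 at D4 (adjusted p = 0.653) and 1.05 ± 0.37 at D6 (adjusted p = 0.129). DESeq2 called the D6 difference (adjusted p = 0.0343, range over the alternatives 0.00325 to 1). Plat was called instead over time in Sox1-FoxA2+ progeny and with replating of Sox1+FoxA2- cells, both given with the other members further on.

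Of 10 plasminogen activation genes, edgeR called 0 at D4 and 2 as higher at D6 in Sox1-FoxA2+ cells relative to Sox1+FoxA2- cells. These were Anxa2 (10.6-fold, adjusted p = 4.23e-05) and S100a10 (5.01-fold, adjusted p = 0.0167), which form the surface complex that binds Plat and plasminogen. In the D6 progeny Plaur, the urokinase receptor, was 3.2-fold higher (5229 ± 825 against 1573 ± 487 counts, adjusted p = 0.00114). Plau, the urokinase that binds it, was 10.2-fold lower (150.3 ± 89.9 against 1454 ± 552 counts, adjusted p = 0.000333), and Lrp1, an endocytic receptor that clears Plat, was 5.57-fold lower (adjusted p = 0.00238). In sorted Sox1-FoxA2+ cells Plaur rose by 3.65 on the log2 scale from D2 to D6 (adjusted p = 0.00448), and Lrp1 fell from 8355 ± 2837 to 1602 ± 363 counts (adjusted p = 0.000145).

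Thbd (ENSMUSG00000074743.4, GRCm38 chr2:148404466-148408188, minus strand, 1 exon) was at 0 in 24 of the 57 libraries and was high only in late progeny. Among sorted cells it was 0, 0 and 594 counts in D2, 206, 202 and 322 in D4, and 525, 0 and 363 in D6 Sox1-FoxA2+ libraries. The D6 Sox1+FoxA2+ libraries held 162, 355 and 5.57 counts. All 3 libraries were at 0 in D6 Sox1+FoxA2-, D6 Sox1-FoxA2-, D4 Sox1+FoxA2+, D2 Sox1-FoxA2- and D2 Sox1+FoxA2+ cells. A floor of 3 counts per library, averaged over the group, stood in for groups at 0. It takes each count as a separate fragment, but 93.9% of Thbd counts above 0 were even, so that folds against it may be too high. Against this floor the D6 Sox1-FoxA2+ mean was at least 92.9-fold higher than in D6 Sox1+FoxA2- and at least 121-fold higher than in D6 Sox1-FoxA2- cells, although replicate 2 of Sox1-FoxA2+ was itself at 0. Neither difference was called by edgeR (adjusted p = 0.176 and 0.194), and DESeq2 called both (adjusted p = 0.00175 and 0.00128, ranges over the alternatives 0.00175 to 0.217 and 0.00128 to 0.236). At D4 the Sox1-FoxA2+ libraries were all above those of the other populations, where the highest held 75.1 counts, and the log2 difference from Sox1+FoxA2- cells was 5.74 ± 3.31 (adjusted p = 0.917).

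Thbd was above 0 in every progeny library. Replicate 3 of the D6 progeny of Sox1+FoxA2- cells held only 2 raw counts, and its 6.15 normalized counts lay below its floor of 9.22. The D4 progeny of Sox1-FoxA2+ cells held 133, 419 and 423 counts, and the D6 progeny 1784, 9641 and 11058. The D6 progeny of Sox1+FoxA2- cells held 196, 258 and 6.15, and those of Sox1+FoxA2+ cells 334, 454 and 751. Thbd was thus 44.1-fold higher in D6 progeny of Sox1-FoxA2+ than of Sox1+FoxA2- cells (log2 5.46 ± 1.12, adjusted p = 0.0257). This call was lost without Sox1+FoxA2- progeny replicate 1 or 2 (adjusted p = 0.171 and 0.144, with a log2 fold change of 6.09 without the latter), without Sox1-FoxA2+ progeny replicate 2 or 3 (adjusted p = 0.119 and 0.118) and in the fit of all 57 libraries (adjusted p = 0.716, range over the alternatives 2.67e-55 to 0.716). The difference between D6 and D4 progeny of Sox1-FoxA2+ cells was 22.4-fold and was not called (adjusted p = 0.144), where DESeq2 called it (adjusted p = 0.000892, range over the alternatives 5.58e-25 to 1).

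Several genes of coagulation control were called with the FoxA2 gate. Of 12 listed genes, 1 was higher and 0 lower at D4 in Sox1-FoxA2+ cells relative to Sox1+FoxA2- cells, 3 and 0 at D6, 1 and 0 in D4 progeny and 4 and 0 in D6 progeny. Tfpi, the inhibitor of the tissue factor pathway, was called each time and was 19.3-fold higher at D6 (16887 ± 3343 against 982 ± 145 counts, adjusted p = 9.96e-07). F3, which is tissue factor, was at 8824 ± 3371 against 272 ± 181 counts at D6 (log2 5.21, adjusted p = 1.68e-05). F2r, a thrombin receptor, was 4.91-fold higher at D6 (adjusted p = 0.0167). In D6 progeny Procr, the receptor that presents protein C to the thrombin and thrombomodulin complex, was 5.87-fold higher (1009 ± 870 against 166 ± 82.8 counts, adjusted p = 0.0368), and Pros1, the cofactor protein S, 2.52-fold (adjusted p = 0.0242).

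Cells with both reporters carried little Sparc and Srgn until D6. Set against Sox1-FoxA2+ cells of D4, 2 members were lower in them, against 0.414% of all genes. The D4 Sox1+FoxA2+ libraries held 6233, 3273 and 5874 counts of Sparc, 26-fold below Sox1-FoxA2+ cells (log2 -4.70 ± 0.51, adjusted p = 6.59e-05). They held 294, 1201 and 461 of Srgn, 21.6-fold below (log2 -4.43 ± 0.69, adjusted p = 0.00562). The Srgn call was lost without D4 Sox1+FoxA2+ replicate 3 (adjusted p = 0.0547), and the log2 difference was -5.16 without replicate 2. Thbd was at least 88-fold lower in D4 Sox1+FoxA2+ than in D4 Sox1-FoxA2+ cells, a difference that edgeR did not call (adjusted p = 0.338).

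At D6 the 3 libraries of Sox1+FoxA2+ cells differed widely. Replicate 1 held 16580 counts of Sparc against 89817 and 124761 in replicates 2 and 3, and 1274 of Srgn against 8411 and 12295. Foxa2 was at 0, 728 and 76.6 counts in replicates 1, 2 and 3, so that the library highest in Sparc and Srgn was not the highest in Foxa2, and the summed parietal endoderm markers were between 124533 and 781531 counts in the 3 libraries. No member was called against D6 Sox1-FoxA2+ cells, where edgeR called 0.0909% of genes, 2 members (Sparc and Srgn) had an unadjusted p under 0.05 and DESeq2 called 1 (Sparc). Of the 24203 genes tested there, 3432 had an unadjusted p under 0.05 and DESeq2 called 1587. Against D6 Sox1+FoxA2- cells 1 member, Sparc, was higher, against 0.0496% of all genes (19-fold, log2 4.25 ± 0.65, adjusted p = 0.0282). Same-numbered libraries of these groups deviated together, and with the replicate block the call was lost (adjusted p = 0.589, range over the alternatives 2.47e-14 to 0.589). It was also lost without Sox1+FoxA2- replicate 1, 2 or 3 (adjusted p = 0.0768, 0.547 and 0.585) and without Sox1+FoxA2+ replicate 2 or 3 (adjusted p = 0.489 and 0.164). It was lost with DESeq2 size factors (adjusted p = 0.0503), without the filter on low counts (adjusted p = 0.159) and in a fit of only these groups (adjusted p = 0.208). Srgn was 4.81 ± 0.85 higher on the log2 scale (adjusted p = 0.0934), and it was called without Sox1+FoxA2+ replicate 1 (adjusted p = 1.65e-07), without the filter on low counts (adjusted p = 5.38e-12), by DESeq2 (adjusted p = 3.26e-11), without robust dispersions (adjusted p = 0.00176) and in the fit of all 57 libraries (adjusted p = 0.0154). Over the alternatives its adjusted p ranged from 5.38e-12 to 0.545. Plat was at 1296 ± 69.4 counts in D6 Sox1+FoxA2+ and 454 ± 132 in D6 Sox1+FoxA2- cells. Fst was at 2460 ± 344 against 1109 ± 1043 counts and Thbd at 174 ± 175 against 0. None of these was called by edgeR. DESeq2, which called 238 of 24203 genes here, called Thbd (adjusted p = 0.0220) but not Plat or Fst. Tfpi (10.7-fold, adjusted p = 9.71e-05) and F3 (11.3-fold, adjusted p = 0.00866) were higher in the same comparison.

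Between progeny of Sox1+FoxA2+ and of Sox1+FoxA2- cells no member was called on either day, where edgeR called 0.00483% of genes at D4 and 0.18% at D6. For Sparc the log2 difference was 0.13 ± 0.28 at D4 and 0.45 ± 0.35 at D6. Srgn at D4 and Fst at D6 had an unadjusted p under 0.05, and DESeq2 called 0 members at D4 and Fst at D6. Over all genes, 976 of 20697 at D4 and 1976 of 21069 at D6 had such a p, and DESeq2 called 34 and 365. Below progeny of Sox1-FoxA2+ cells, 2 members were called at D4 (0.676% of all genes) and 3 at D6 (2.35%). Sparc was 3.54-fold lower at D4 (adjusted p = 0.00174) and 4.26-fold at D6 (adjusted p = 0.00411). Srgn was 43.3-fold lower at D4 (adjusted p = 0.000694) and 11.8-fold at D6 (adjusted p = 0.0323). Fst was 5.01-fold lower at D6 (5571 ± 469 counts, adjusted p = 0.00545). The D6 call of Srgn was lost without Sox1+FoxA2+ progeny replicate 1, 2 or 3 (adjusted p = 0.152, 0.175 and 0.0735, with a log2 difference of -4.23 without the latter) and without Sox1-FoxA2+ progeny replicate 2 or 3 (adjusted p = 0.134 and 0.124). The D4 log2 difference of Srgn was -6.21 without Sox1+FoxA2+ progeny replicate 2. The fit of all 57 libraries lost the calls of Sparc at D4 (adjusted p = 0.593) and of Sparc, Srgn and Fst at D6 (adjusted p = 0.0931, 0.0592 and 0.813), each the highest over its alternatives, whose lowest were 1.46e-08, 4.01e-11, 1.35e-31 and 3.32e-15.

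Over time in sorted Sox1-FoxA2+ cells, 3 members rose between D2 and D6, against 1.51% of all genes. Sparc rose 22.5-fold (log2 4.49 ± 0.46, adjusted p = 7.66e-05), Srgn 20.5-fold (4.36 ± 0.70, adjusted p = 0.00874) and Fst 29.8-fold (4.90 ± 0.94, adjusted p = 0.0364). In each gene the highest D2 library was replicate 3, and without it the log2 changes were 5.24, 5.30 and 6.08. Leaving out any 1 library did not end the call of Sparc. That of Srgn was lost without D2 replicate 2 (adjusted p = 0.0871) and without D6 replicate 2 or 3 (adjusted p = 0.0644 and 0.063). That of Fst was lost without D2 replicate 1 or 2 (adjusted p = 0.126 and 0.209), without D6 replicate 1 or 2 (adjusted p = 0.0666 and 0.15, with a log2 change of 4.14 without the former), without the filter on low counts (adjusted p = 0.104) and in the fit of all 57 libraries (adjusted p = 0.0688, range over the alternatives 1.23e-06 to 0.227). Plat changed by 1.07 ± 0.47 (adjusted p = 0.31) and Thbd by 0.53 ± 2.22 (adjusted p = 0.97), which were not called.

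**Figure D4:**
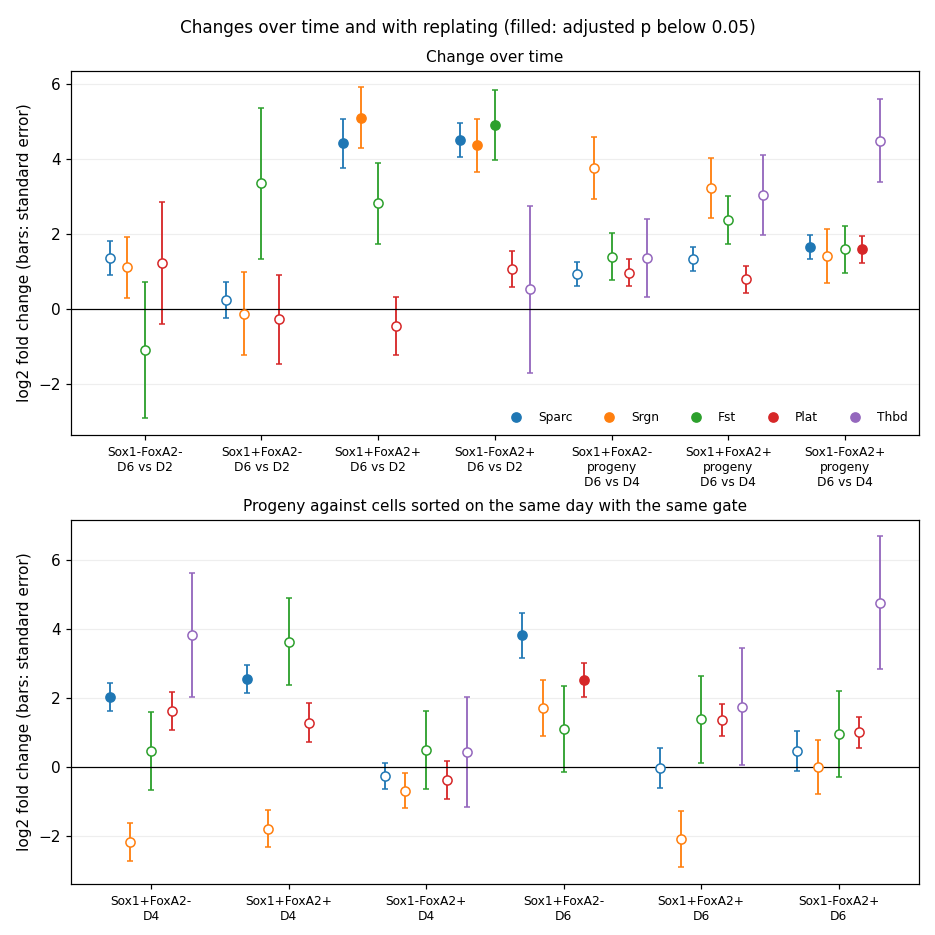
Log2 fold changes with standard errors of the 5 genes over time within a population (top) and between progeny, gated only at D2, and cells sorted with the same gate on the same day (bottom), with filled points for adjusted p under 0.05 and Thbd left out where a group was at 0. Sparc and Srgn are filled at D6 against D2 in both FoxA2-positive populations, and in the bottom panel no point of Sox1-FoxA2+ cells is filled.

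In sorted Sox1+FoxA2+ cells 2 members rose from D2 to D6, against 0.107% of all genes. Sparc rose 21.3-fold (adjusted p = 0.0224), a call lost without D6 replicate 2 (adjusted p = 0.115) and in a fit of only these groups (adjusted p = 0.0648, range over the alternatives 1.33e-23 to 0.167). Srgn rose 34.2-fold (adjusted p = 0.00686), and no left-out library ended that call, although the fit of only these groups did (adjusted p = 0.0648, lowest over the alternatives 3.06e-10). In sorted Sox1+FoxA2- cells no member was called from D2 to D6, where edgeR called 0% of 22328 genes, 0 members had an unadjusted p under 0.05 and DESeq2 called 0 members. In Sox1-FoxA2- cells 0 members were called by either tool over the same days, where edgeR called 0.0188% of genes and 1 member had an unadjusted p under 0.05. Over all genes, 2538 of 22328 in Sox1+FoxA2- and 1454 of 21278 in Sox1-FoxA2- cells had such a p, and DESeq2 called 865 and 360. The difference between the changes from D2 to D6 was tested for Sox1-FoxA2+ and Sox1+FoxA2- cells, and 2 members were called, against 0.308% of all genes. The rise was larger in Sox1-FoxA2+ cells by 4.28 ± 0.79 for Sparc (adjusted p = 0.0305) and by 4.55 ± 0.87 for Srgn (adjusted p = 0.0309) on the log2 scale. Most left-out libraries ended these calls. For Sparc the adjusted p was 0.0714 and 0.0731 without D6 Sox1-FoxA2+ replicates 1 and 2, 0.0947 and 0.103 without D2 Sox1-FoxA2+ replicates 1 and 2, 0.0637, 0.14 and 0.13 without D6 Sox1+FoxA2- replicates 1, 2 and 3, and 0.108 and 0.0972 without D2 Sox1+FoxA2- replicates 1 and 2. For Srgn it was 0.0549 and 0.0731 without D6 Sox1-FoxA2+ replicates 1 and 2, 0.107 without D2 Sox1-FoxA2+ replicate 2, 0.161 and 0.0985 without D6 Sox1+FoxA2- replicates 1 and 2, and 0.0973 and 0.0932 without D2 Sox1+FoxA2- replicates 1 and 3. Without D2 Sox1-FoxA2+ replicate 3 both differences were larger, at 5.05 for Sparc and 5.50 for Srgn. Srgn was also lost with DESeq2 size factors (adjusted p = 0.0682), in a fit of only these groups (adjusted p = 0.111) and in the fit of all 57 libraries (adjusted p = 0.13), with a range over the alternatives of 2.3e-15 to 0.13.

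In progeny of Sox1-FoxA2+ cells 2 members rose from D4 to D6, against 0.133% of all genes. Sparc rose 3.16-fold (adjusted p = 0.0177) and Plat 3.03-fold, from 1072, 2088 and 1577 to 2196, 5636 and 6669 counts (adjusted p = 0.0413). Both calls rested on single libraries. Without D4 replicate 1 the adjusted p was 0.133 for Sparc and 0.273 for Plat, without D4 replicate 3 it was 0.0923 and 0.126, without D6 replicate 2 it was 0.138 and 0.219, and without D6 replicate 3 it was 0.104 and 0.237. A fit of only these groups (adjusted p = 0.1 and 0.169) and the fit of all 57 libraries (adjusted p = 1 for both) lost the calls as well, and Plat was also lost without robust dispersion (adjusted p = 0.0521). Over the alternatives the adjusted p ran from 8.28e-08 to 1 for Sparc and from 8.17e-05 to 1 for Plat.

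After replating, Sparc was higher than in cells sorted on the same day in progeny of Sox1+FoxA2- cells at both times and in progeny of Sox1+FoxA2+ cells at D4. D4 progeny of Sox1+FoxA2- cells had 4.11-fold more Sparc than Sox1+FoxA2- cells sorted at D4 (adjusted p = 0.01), the 1 member called where edgeR called 0.463% of genes higher. This call was lost without sorted replicate 2 or 3 (adjusted p = 0.0962 and 0.0666), without progeny replicate 2 (adjusted p = 0.0605), in a fit of only these groups (adjusted p = 0.111) and in the fit of all 57 libraries (adjusted p = 0.147, range over the alternatives 5.31e-08 to 0.147), and the log2 fold change was 2.99 without sorted replicate 1. At D6, 2 members were higher in the progeny, against 2.06% of genes. Sparc was 14.1-fold higher (adjusted p = 0.00415) and Plat 5.76-fold, at 1898, 3060 and 1746 against 604, 355 and 403 counts (adjusted p = 0.00227). No left-out library ended either call, and the fit of all 57 libraries lost that of Plat (adjusted p = 0.295, lowest over the alternatives 5.01e-06). Thbd, at 0 in every D6 Sox1+FoxA2- library, was at least 48.1-fold higher in their D6 progeny. edgeR did not call this difference, although all 5 members were called without the filter on low counts.

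D4 progeny of Sox1+FoxA2+ cells had 5.87-fold more Sparc than D4 Sox1+FoxA2+ cells (adjusted p = 0.00106), a call that no left-out library ended. Thbd, at 32.0, 125 and 29.1 against 0, 0 and 0 counts, was at least 22.4-fold higher (adjusted p = 0.0481), and these were the 2 members called, against 0.974% of genes. The call of Thbd was lost without any of the 6 libraries. The adjusted p was 0.0687, 0.0933 and 0.117 without sorted replicates 1, 2 and 3, and 0.0631, 0.171 and 0.0670 without progeny replicates 1, 2 and 3. It was also lost with DESeq2 size factors (adjusted p = 0.0559), in a fit of only these groups (adjusted p = 0.168) and in the fit of all 57 libraries (adjusted p = 0.247, range over the alternatives 6.34e-05 to 0.247). In Sox1-FoxA2+ cells the log2 difference between progeny and sorted cells was -0.26 ± 0.39 for Sparc at D4 and 0.47 ± 0.58 at D6, and 0.00 ± 0.79 for Srgn at D6. No member was called there on either day, where edgeR called 0.173% of genes at D4 and 0.121% at D6, DESeq2 called 0 members, and 0 members at D4 and 2 at D6 (Plat and Thbd) had an unadjusted p under 0.05. Over all genes, 1532 of 24857 at D4 and 2778 of 25515 at D6 had such a p, and DESeq2 called 501 and 1168.

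Markers of other cell types moved with some of these results. In D6 Sox1-FoxA2+ cells the summed level of 10 visceral endoderm genes was 55742 to 159379 counts, against 9588 to 12690 in D6 Sox1+FoxA2- cells. The genes called were Lrp2 (7.72-fold higher, adjusted p = 0.00981) and Cubn (56.9-fold, adjusted p = 0.00271), which are endocytic receptors of yolk sac epithelium. The defining genes Afp and Ttr were at 0 in all 3 D6 Sox1-FoxA2+ libraries. The 9 endothelial genes summed to 3112 to 5402 counts in D6 Sox1-FoxA2+ and 4837 to 7847 in D6 Sox1+FoxA2- cells, with 0 called by edgeR. The 8 blood and megakaryocyte genes summed to 2098 to 5398 and 1406 to 2764 counts, with 0 called. In D6 progeny, where Thbd was highest, the endothelial sum was 4249 to 5134 counts from Sox1-FoxA2+ and 1247 to 1872 from Sox1+FoxA2- cells, with Tek and Flt1 called among the 9. Trophoblast genes, which share Thbd as a marker, summed to 197 to 645 and 209 to 430 counts there, with 0 of 8 called. In sorted D6 cells 8 mesenchymal genes summed to 8134 to 23968 counts in Sox1-FoxA2+ and 1445 to 2125 in Sox1+FoxA2- libraries, with Pdgfra called. These genes summed to 10836 to 30647 and 25015 to 70164 counts in the D6 progeny of these gates. The part of these cell types in the levels of the 5 genes was not tested.

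Over the 19 conditions neighbours in the order of means mostly overlapped, in 16 of 18 pairs for Sparc and Fst, 17 for Srgn and Thbd and 18 for Plat. For Sparc the highest conditions were D6 progeny of Sox1-FoxA2+ cells, D6 Sox1-FoxA2+ and D4 Sox1-FoxA2+ cells, and the sorted D6 libraries did not overlap those of D4. Genes whose condition means ran most like each member were found among 16639 genes by Pearson's r over the 19 means, which share libraries and populations. They were Rras2 (0.974), Fam129b (0.972) and Msl3 (0.964) for Sparc, and Epas1 (0.970), Parvb (0.940) and Lpin1 (0.930) for Srgn. For Fst they were Col4a1 (0.964), Lifr (0.952) and Fkbp9 (0.946). For Plat they included Serpinh1 (0.929) and Snx9 (0.922). For Thbd they were Slc7a6 (0.948), Plaur (0.936) and Gxylt1 (0.926).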

How the data were processed

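RNA-seq counts were analysed for 57 libraries in 19 conditions (13 sorted, 6 progeny) of 3 replicates, which the study calls biological replicates. The labels do not tie them to separate cultures, and p-values measure the spread between these samples. The authors made SMART-Seq Stranded Kit libraries, aligned reads with STAR to GENCODE M21 (GRCm38), sorted them with SAMtools and deposited raw featureCounts counts per gene. Versions and strand setting are not given in the sources used here. Genes lying wholly inside exons on the other strand had 0 counts in 98.9% of 460 cases, so overlapping reads seem to have been dropped whatever their strand, and 80.6% of counts above 0 were even.

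Rows naming no gene (92, with 0 counts) were left out. Levels are counts divided by DESeq2 (1.42.0) size factors. Comparisons used edgeR (4.0.16, R 4.3.3) quasi-likelihood tests with robust dispersions, TMM scaling, filterByExpr (minimum count 10, total 15) and Benjamini-Hochberg adjustment at 0.05. Fits held the libraries of 1 day for populations, of 1 arm for times, and of both arms of a day for progeny against sorted cells. Scripts were tested on simulated data. A floor of 3 counts stood in for groups at 0 and covers counting error only. It takes each count as a separate fragment, so that the bounds of Thbd, whose counts were mostly even, may be too high.

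The 5 genes and all gene lists were chosen with earlier results of these data known. The genes named were the 5 members, list genes that passed the test or that a result turned on, and for each member the 3 genes with the highest Pearson r over condition means of log2(normalized counts + 1), among genes with a mean of at least 50. Some genes that this rule names are not reported here. Alternatives were DESeq2's Wald test, DESeq2 size factors, no filter, only the groups compared, all 57 libraries, a replicate block, each library left out and, added after the data were seen, edgeR without robust dispersions. Same-numbered libraries deviated together (all 3 correlations of deviations over 5000 genes above 0.1) in 13 of 35 comparisons, with correlations of -0.30 to 0.61 over all pairs. The shared number is all that the labels give for pairing.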

Additional observations from a re-analysis of the deposited data

Results flagged for a closer look

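For 2 of the 5 genes the change from D2 to D6 differed between gates by a test of the difference itself. Relative to the change in Sox1+FoxA2- cells, that of Sparc in the Sox1-FoxA2+ gate was larger by 4.28 (log2, edgeR, adjusted p = 0.0305) and that of Srgn by 4.55 (log2, edgeR, adjusted p = 0.0309). For both genes, and for Fst as well, every D6 Sox1-FoxA2+ library lay above every D2 library of that gate. The share of all genes for which this held is not given here. The libraries whose omission ended these calls are named with the changes over time.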

How the results depend on the processing

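Counts are members called, of 5. Most stand without the share of all genes called under the same setting. They describe the settings and are not read as results about the members. Without the filter on low counts, 1 was called for Sox1-FoxA2+ against Sox1+FoxA2- and 2 against Sox1-FoxA2- at D2, and 1 each for Sox1+FoxA2+ against Sox1-FoxA2+ at D2, for Sox1+FoxA2+ against Sox1+FoxA2- at D4 and in D4 progeny, for Sox1+FoxA2- against Sox1-FoxA2- at D4 and for D6 against D2 Sox1-FoxA2- cells (0 with it in each). In D6 progeny Sox1+FoxA2+ against Sox1+FoxA2- went from 0 to 3, and D6 against D4 progeny from 2 to 5 (Sox1-FoxA2+) and from 0 to 4 (both others). Progeny against sorted cells went from 1 to 2 (D4 Sox1+FoxA2-), 2 to 4 (D4 Sox1+FoxA2+), 0 to 1 (D6 Sox1-FoxA2+), 2 to 5 (D6 Sox1+FoxA2-) and 0 to 3 (D6 Sox1+FoxA2+), and the change of the gate difference with replating from 0 to 1 at D4 and to 2 at D6. DESeq2's Wald test gave 1 in place of 0 for Sox1-FoxA2+ against either FoxA2- population and Sox1+FoxA2+ against Sox1-FoxA2+ at D2, the latter pair at D6, Sox1+FoxA2+ against Sox1+FoxA2- D6 progeny, D6 against D4 Sox1+FoxA2- progeny, D6 Sox1+FoxA2+ progeny against sorted cells and both changes with replating. It gave 4 in place of 2 for D6 Sox1-FoxA2+ against either FoxA2- population and for D4 Sox1+FoxA2+ progeny against sorted cells, 3 in place of 1 for D6 Sox1+FoxA2+ against Sox1+FoxA2-, 3 in place of 0 for D6 against D4 Sox1+FoxA2+ progeny and 2 in place of 1 for D4 Sox1+FoxA2- progeny against sorted cells. DESeq2 also called more genes in all in each of these comparisons. For D6 Sox1-FoxA2+ it called 1641 genes in place of 319 against Sox1+FoxA2- and 1369 in place of 242 against Sox1-FoxA2- cells. For D4 Sox1+FoxA2+ progeny against sorted cells it called 1748 in place of 329. In a fit of all 57 libraries, Sox1-FoxA2+ against Sox1+FoxA2- fell from 3 to 1 (D4 progeny) and 4 to 2 (D6 progeny), Sox1+FoxA2+ against Sox1-FoxA2+ from 2 to 1 and 3 to 0, D6 against D4 Sox1-FoxA2+ progeny from 2 to 0, progeny against sorted cells from 1 to 0 (D4 Sox1+FoxA2-), 2 to 1 (D4 Sox1+FoxA2+) and 2 to 1 (D6 Sox1+FoxA2-), the D2 to D6 interaction from 2 to 1, and D6 Sox1+FoxA2+ against Sox1+FoxA2- went from 1 to 2. With only the groups compared, the last gave 0, D6 against D2 Sox1+FoxA2+ 0 in place of 2, D6 against D4 progeny 0 in place of 2 (Sox1-FoxA2+) and 1 in place of 0 (Sox1+FoxA2+), D4 progeny against sorted cells 0 in place of 1 (Sox1+FoxA2-) and 1 in place of 2 (Sox1+FoxA2+), the interaction 1 in place of 2 and the D6 change with replating 1 in place of 0. DESeq2 size factors gave 0 in place of 1 for D6 Sox1+FoxA2+ against Sox1+FoxA2-, and 1 in place of 2 for D4 Sox1+FoxA2+ progeny against sorted cells and for the interaction. Without robust dispersions the first of these gave 2, and D6 against D4 progeny of Sox1+FoxA2- and of Sox1+FoxA2+ cells 1 in place of 0. The cause was not tested.

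With the replicate block, 0 in place of 2 were called for D6 Sox1-FoxA2+ against Sox1-FoxA2-, 0 in place of 1 for D6 Sox1+FoxA2+ against Sox1+FoxA2-, 1 in place of 3 for D6 against D2 Sox1-FoxA2+, 1 in place of 2 for D6 against D2 Sox1+FoxA2+ and 2 in place of 1 for D4 Sox1+FoxA2- progeny against sorted cells. Among the 13 comparisons in which the numbers paired the libraries, the block ended only the D6 call of Sparc for Sox1+FoxA2+ against Sox1+FoxA2- (edgeR, adjusted p = 0.589). In the others the libraries share only a number. There the block left, in edgeR, Sparc at an adjusted p of 0.0778 and Srgn at 0.0847 for D6 Sox1-FoxA2+ against Sox1-FoxA2-, Srgn at 0.112 and Fst at 0.227 for D6 against D2 Sox1-FoxA2+, Sparc at 0.167 for D6 against D2 Sox1+FoxA2+ and Thbd at 0.0516 for D4 Sox1+FoxA2+ progeny against sorted cells.

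With each library left out in turn, calls ran for Sox1-FoxA2+ against Sox1+FoxA2- from 1 to 3 at D4 and at D6, 2 to 3 in D4 and 2 to 5 in D6 progeny, and against Sox1-FoxA2- from 0 to 1 at D6. For Sox1+FoxA2+ they ran from 1 to 2 at D4, 2 to 3 in D4 and 2 to 4 in D6 progeny against Sox1-FoxA2+, and from 0 to 2 at D6 against Sox1+FoxA2-. Over time they ran from 1 to 3 in both FoxA2+ populations, 0 to 2 in Sox1-FoxA2+ progeny and for the interaction, and 0 to 1 for D2 against D0. For D4 progeny against sorted cells they ran from 0 to 2 (Sox1+FoxA2-) and 1 to 2 (Sox1+FoxA2+), and for the D4 change with replating from 0 to 1. The uncalled Thbd change of 0.53 from D2 to D6 in Sox1-FoxA2+ cells ran from -0.29 to 11.42 on the log2 scale, turning sign without 3 of its libraries. With TMM scaling, 7 of 95 levels moved by more than their SD (ratios 0.929 to 1.2).

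Limits are the 3 libraries a group, the small number of cells that the study took per library, and reads that overlapping genes share. Counts were 0 in 24 libraries for Thbd, 2 for Plat and 1 for Fst. In these, a transcript missed at low input and its absence cannot be told apart.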

Other observations

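When the likeness to each gene was taken over the 57 libraries rather than over the 19 condition means, other genes came first. They were Lamc1 for Sparc (Pearson's r = 0.949), Lifr for Thbd (0.806), App for Plat (0.825), Epas1 for Srgn (0.917) and Lifr for Fst (0.828). These are descriptions over points that share populations and depth. Of these, Epas1 alone also came first over the condition means.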
